A study of Sinonovacula constricta with 18 samples.

Results

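In the razor clam Sinonovacula constricta, 150 isoform clusters held high levels in both the siphon and the foot and low levels in the 4 other tissues measured. They were taken from 32250 clusters, each a transcript or a piece of a transcript whose reads were counted together. They were chosen on measured levels: a cluster had at least 1 FPKM (the read count of a cluster scaled for its length and for the size of the library) in each siphon and foot library and each of these 6 values lay above all 12 other libraries. Its siphon and foot means also had to lie within 2-fold of each other. A ratio was then taken, the lower of the siphon and foot means over the highest mean of the 4 other tissues, with 0.1 FPKM added to each, and had to be at least 4. The first condition held for 14068 clusters, the second for 716 of these, the third for 595 and the ratio for 322, of which the 150 with the highest ratios are described. No test is given of siphon or foot against the other tissues, since that difference is what selected the clusters.

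The siphon is the muscular tube through which a buried clam draws in and expels water, and the foot is the muscular organ with which it digs. The mantle lines the shell, secretes it and carries muscle along its edge. The gill serves respiration and the collection of food particles, the labial palp sorts those particles, and the intestine digests and absorbs. In bulk tissue, more cells of a type and more RNA per cell cannot be told apart.

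The tissues came from healthy adult clams, and each was represented by 3 libraries numbered 1 to 3: siphon, foot (labelled foot muscle), mantle, gill, labial palp and intestine. No treatment separated them. Each library was made from RNA of 3 pooled individuals. No label says whether libraries of different tissues shared animals. The files pair no cluster with a gene name, so neither the tissue labels nor the members could be checked against marker genes, and a cluster is named here by its size class and cluster number, such as i3_c19820, with a suffix, as in i8_c93.1, for a piece of a transcript.

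The libraries held between 9982441 and 17970120 estimated reads. Over the 26222 clusters with at least 180 reads, 15 of 18 libraries correlated best with a library of the same number from another tissue, and 3, all mantle, with their own tissue. Each of the 6 siphon and foot libraries was closest to its same-numbered partner, with r between 0.861 and 0.882, against 0.56 to 0.679 within siphon or within foot and 0.528 to 0.642 between siphon and foot libraries of different numbers. Over the members these ranges were 0.966 to 0.988, 0.93 to 0.939 and 0.924 to 0.945. The points of these correlations are clusters, which are not independent replicates. Siphon and foot libraries of 1 number are thus not shown to be independent of each other, and the p-values measure only the spread between these libraries.

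More clusters passed all 4 conditions of the rule for siphon and foot than for any other pair of the 6 tissues. The conditions applied to each of the 15 pairs gave 322 clusters for siphon and foot, 48 for gill and labial palp, 12 for labial palp and intestine, 9 for siphon and mantle, 7 for mantle and intestine, and at most 4 for each of the others. Before the ratio was applied, 716 clusters of siphon and foot lay above all other libraries and 595 of these had means within 2-fold. Gill and labial palp had 650 and 589, so only the ratio set these 2 pairs apart. Labial palp and intestine had 426 and 372. Each remaining pair had at most 111 and 81, so it already differed at the condition of lying above all other libraries. These counts are descriptions of how the libraries fell, with no test.

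The members made up a large part of the siphon and foot libraries. They took 9.41%, 10.8% and 9.98% of the reads in siphon and 11.2%, 14.1% and 12.2% in foot, against 1.0%, 0.762% and 0.856% in mantle. In gill the shares were 0.478%, 0.788% and 0.681%, in labial palp 0.499%, 0.449% and 0.477%, and in intestine 0.19%, 0.249% and 0.168%. Each foot library lay above each siphon library, and every mantle library above every labial palp and intestine library.

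**Figure D1:**
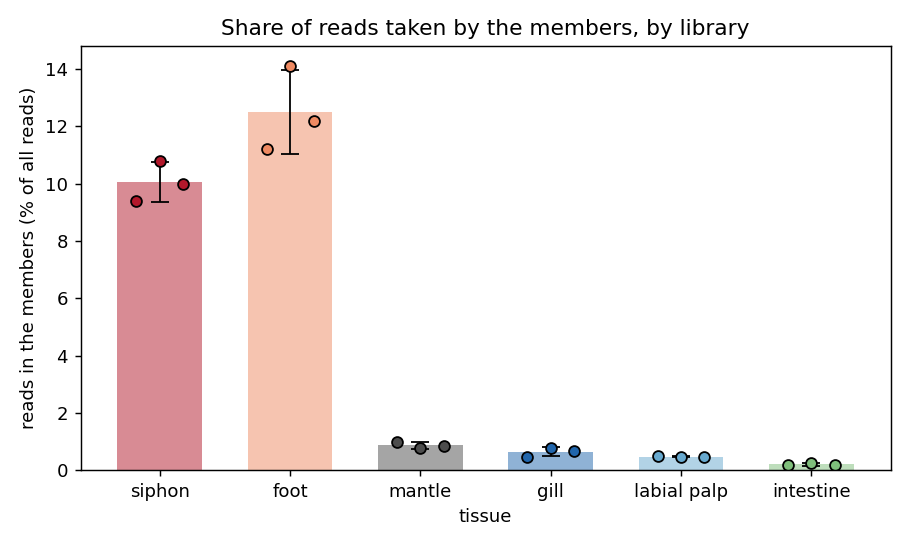
Share of all reads of a library taken by the 150 members, in percent, by tissue; points are the 3 libraries, bars their mean and error bars 1 SD. The siphon averaged 10.1% and the foot 12.5%, against 0.873% in mantle, 0.649% in gill, 0.475% in labial palp and 0.202% in intestine.

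Levels among the members spanned more than 3 orders of magnitude. Their mean FPKM ran from 1.73 to 6745 in siphon, with a median of 54.5, and from 1.6 to 9155 in foot, with a median of 59.6. The medians were 3.49 in mantle, 2.64 in gill, 1.76 in labial palp and 0.777 in intestine. Over all clusters siphon and foot had the lowest medians, with 3.02 in siphon and 2.5 in foot, against 4.06 in mantle, 5.88 in gill, 6.03 in labial palp and 5.07 in intestine. A mean of at least 1000 FPKM was reached by 21 members in siphon and 21 in foot. The 5 most abundant members held 35.7% of the summed FPKM of all members in siphon and 39.0% in foot, and the 10 most abundant 57.1% and 59.0%.

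**Figure D2:**
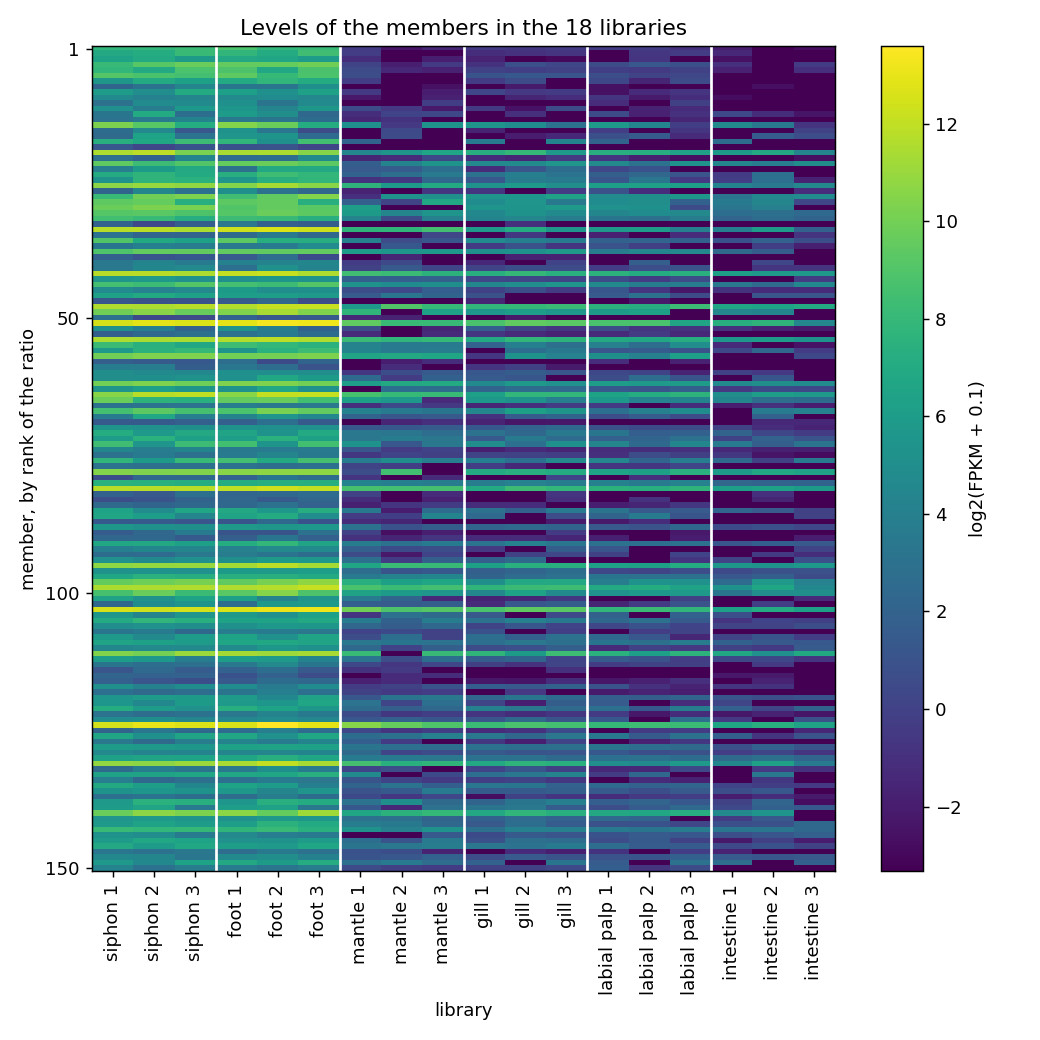
Levels of the 150 members (rows, by falling ratio) in the 18 libraries (columns), as log2(FPKM + 0.1). The 6 siphon and foot columns are the brightest in every row by the rule, and the intestine columns hold the most dark cells, with 50 to 55 members at 0 in each.

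The ratios ran from 6.603 to 350.3 with a median of 9.23. A ratio of at least 10 was held by 62 members, of at least 20 by 16, of at least 50 by 9 and of at least 100 by 6. Many members were present at a low level in the other tissues rather than missing there: 63 were above 0 in all 12 other libraries, 97 averaged at least 1 FPKM in mantle, and 27 were under 1 FPKM in all 12.

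The highest ratio belonged to i3_c19820, whose transcript is 3805 bases long by its identifier. It had 223, 232 and 295 FPKM in siphon and 453, 238 and 275 FPKM in foot. The 12 other libraries lay at or under 0.73 FPKM, and intestine replicate 2 was at 0.

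The next 2 members by ratio had low or zero values over all 4 other tissues. i1_c94664 had 121, 141 and 286 FPKM in siphon and 225, 137 and 345 FPKM in foot, against at most 0.74 FPKM elsewhere, with 5 of the 12 other libraries at 0. i1_c64254 had 88.5, 131 and 60.5 FPKM in siphon and 120, 104 and 61.4 FPKM in foot, against at most 0.47 FPKM elsewhere. Replicate 3 was highest in both tissues for i1_c94664 and lowest in both for i1_c64254, so that the 2 clusters did not vary together between the libraries.

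A further 3 members exceeded a ratio of 100. i1_c209744, the most abundant of them, had 281, 575 and 831 FPKM in siphon and 731, 773 and 983 FPKM in foot, against 0.17 to 2.36 FPKM in the other libraries above 0. i3_c7408 had 232, 129 and 444 FPKM in siphon and 470.4, 114 and 432 FPKM in foot, against at most 1.36 FPKM elsewhere. i2_c87140 had 542, 427 and 374 FPKM in siphon and 674, 257 and 447 FPKM in foot, and was listed at 0 in all 3 intestine libraries and in mantle replicates 2 and 3. The mantle values of these 6 members were highest in replicate 1 in every case.

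Below them, the ratios fell to 83.44 for i1_c28610, 77.56 for i4_c618, 70.14 for i1_c1926 and 49.89 for i2_c10740. i4_c618 was low even where it was high, with 4.27, 8.19 and 20.6 FPKM in siphon and 9.28, 9.03 and 33.6 FPKM in foot, against at most 0.13 FPKM elsewhere. Its ratio was set by the added constant and was 11.52 with 1 FPKM added and 206.7 with 0.01. For i3_c19820 the same settings gave 155.5 and 400.8.

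**Figure D3:**
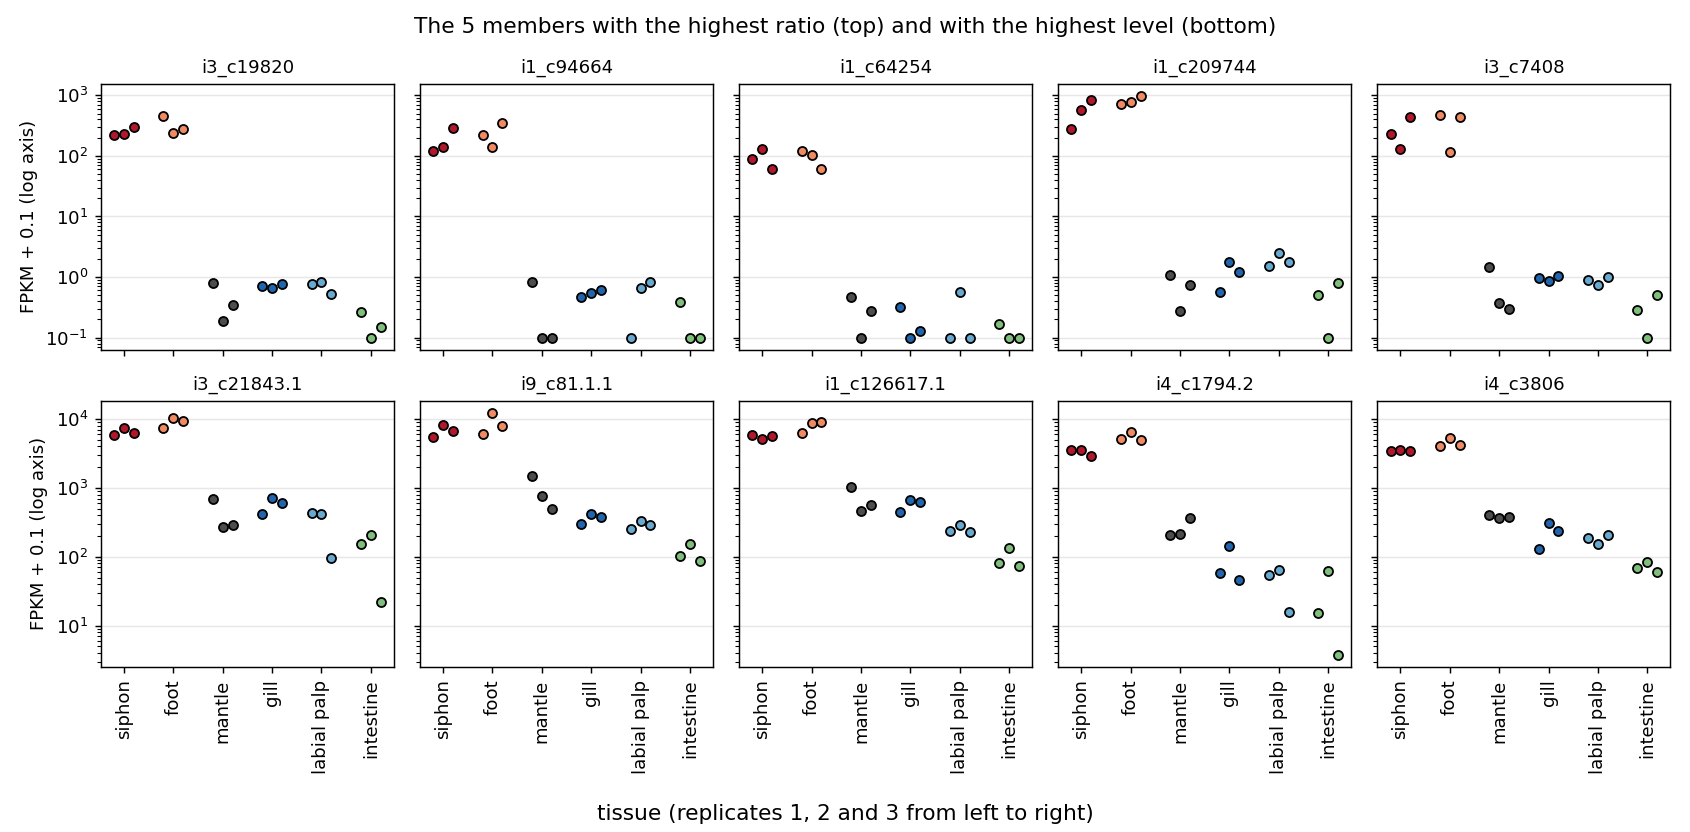
FPKM + 0.1 on a log axis of the 5 members with the highest ratio (upper row) and of the 5 with the highest mean in siphon and foot (lower row), by tissue; each point is 1 library. The upper members lay at or under 2.36 FPKM outside siphon and foot, while each lower member stayed above 3 FPKM in all 12 other libraries.

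Only i3_c43010 was listed at 0 in all 12 other libraries. It had 2.27, 1.09 and 1.83 FPKM in siphon and 1.81, 1.95 and 1.05 FPKM in foot, so it lay close to the minimum of 1 FPKM, and its ratio of 17.03 rests on the added constant. By tissue, 3 members were at 0 in all 3 libraries of mantle, 5 in gill, 9 in labial palp and 25 in intestine.

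The most abundant members were not the most restricted. i3_c21843.1 had 5848, 7499 and 6257 FPKM in siphon and 7519.8, 10489 and 9456 FPKM in foot, and still 690.3, 271 and 289 FPKM in mantle. i9_c81.1.1 had 5417, 8121 and 6697 FPKM in siphon and 6068, 12337 and 7797 FPKM in foot, against 1471, 759 and 497 FPKM in mantle. i1_c126617.1 had 5855, 5069 and 5645 FPKM in siphon and 6293, 8701 and 8979 FPKM in foot, against 1021, 463 and 574 FPKM in mantle. Their ratios were 11.22, 7.42 and 8.052.

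The other members among the top 5 in level were i4_c1794.2 and i4_c3806. i4_c1794.2 had 3509, 3612 and 2919 FPKM in siphon and 5068, 6426 and 5003 FPKM in foot, and every foot library lay above every siphon library. i4_c3806 had 3445, 3552 and 3486 FPKM in siphon and 4091, 5223 and 4233 FPKM in foot, again with no overlap. The 21 members with a mean of 1000 FPKM or more over siphon and foot had ratios between 6.915 and 15.64.

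At the lower end of the list, the last members taken were i1_c23792, i1_c89647.1 and i4_c1461.2, with ratios of 6.624, 6.615 and 6.603. The nearest clusters left out, i1_c3213, i2_c45061 and i1_c51920, had ratios of 6.593, 6.528 and 6.48. i4_c1461.2 had 19.1, 8.14 and 14.3 FPKM in siphon and 12.7, 9.02 and 13.5 FPKM in foot, and i1_c3213 had 32.8, 11.1 and 16.4 FPKM in siphon and 34.3, 9.63 and 19.4 FPKM in foot. The border therefore separates clusters of nearly equal ratio, and clusters with ratios down to 4.018 pass the same rule.

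Between siphon and foot, the members were more often higher in the foot. The siphon mean over the foot mean had a median of 0.807 and ran from 0.5073 to 1.873, and the rule had allowed no more than 2-fold either way. The foot mean was higher for 111 of the 150 members. Every foot library lay above every siphon library for 20 members and the reverse held for 4, which were i1_c94453, i1_c48144, i1_c4174 and i2_c3259, named after their values were seen. Of the 14068 clusters with at least 1 FPKM in all 6 libraries, 4.86% and 12.9% separated in these ways. Of the 12539 of these with means within 2-fold, as the rule asked of the members, 2.86% and 9.12% did. Taken within each number, foot exceeded siphon in all 3 numbers for 61 members (40.7%), against 14.2% of the 14068 clusters and 12.2% of the 12539. Siphon exceeded foot in all 3 for 12 (8.0%), against 37.0% and 33.7%. The rule used the siphon and foot means, so these counts are given with no test.

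i2_c50137 had the smallest p between the 2 tissues, with 63.99, 54.1 and 49.9 FPKM in siphon and 81.5, 85.4 and 81.6 FPKM in foot. The foot libraries did not overlap with the siphon libraries, and the log2 difference, siphon minus foot, was -0.87 ± 0.31 (SE) with an adjusted p of 0.331 (edgeR quasi-likelihood test over the 29930 clusters with at least 10 reads, Benjamini-Hochberg adjustment). In the other direction, i1_c94453 had 879.6, 1196 and 1173 FPKM in siphon and 519.5, 755 and 628 FPKM in foot. None of the 150 members passed an adjusted p of 0.05, against 1.32% of all clusters tested. Nothing can be read from this 0, since the rule had removed clusters whose means differed by more than 2-fold. At an unadjusted p under 0.05 there were 7 members (4.67%), all lower in siphon, against 7.92% of all clusters (edgeR). DESeq2 gave 14 (9.33%), also all lower in siphon, against 10.4%, and limma gave 0, against 9.65%. By adjusted p DESeq2 called 1 (i2_c50137) and limma 0. The rule drew on the siphon and foot means, so these counts are descriptions and no direction is read from them. The median log2 difference of the members was -0.59 with TMM scaling, where that of all clusters was 0, and -0.27 on the FPKM scale, where that of all clusters was 0.23.

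Among the 4 other tissues, the members had an order that the rule had not asked for, with the mantle highest and the intestine lowest. The mantle held the highest of the 4 means for 88 members, the gill for 44, the labial palp for 17 and the intestine for 1. As shares these were 58.7%, 29.3%, 11.3% and 0.667% of the members, against 21.6%, 25.9%, 26.8% and 25.7% of all clusters with a value above 0 in these tissues. The intestine was lowest for 120 members, 11 members having a tie for the lowest place. As a share of the lower of the siphon and foot means, the median level was 8.79% in mantle, 6.52% in gill, 4.46% in labial palp and 1.87% in intestine. The full order of mantle, gill, labial palp and intestine held for 55 of the 150 members, and for 13 of the 21 with a mean of at least 1000 FPKM. The share of all clusters was computed for the highest place only. The counts for the lowest place and for the full order are therefore descriptions without a background.

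**Figure D4:**
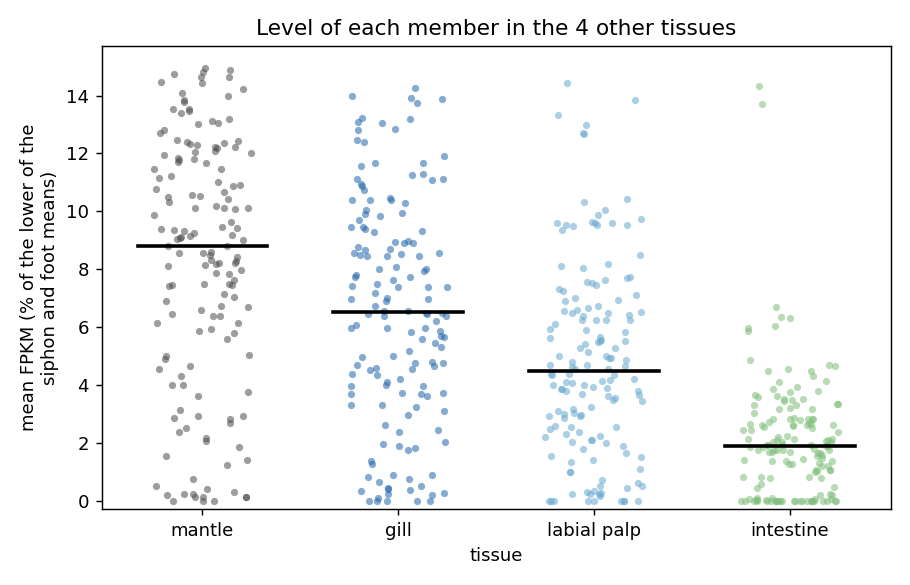
Mean FPKM of each member in the 4 other tissues, as a percent of the lower of its siphon and foot means; each point is 1 member and the black lines are medians. The medians were 8.79% in mantle, 6.52% in gill, 4.46% in labial palp and 1.87% in intestine, and the rule leaves no point above 15%.

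The mantle was tested against the mean of gill, labial palp and intestine in the fit over all 18 libraries. Same-numbered libraries of gill, labial palp and intestine entered as independent, although over all clusters they varied together. The SEs and p-values of this test may therefore be too small. Higher levels in mantle were called for 54 of the 150 members (36.0%), against 8.74% of all clusters, and lower levels for 0, against 4.88% of all clusters. No member was lower in mantle at an unadjusted p under 0.05 either. DESeq2 gave 65 higher and 0 lower. Called in either direction were 43.3% of the members against 22.5% of all clusters in DESeq2, and 36.0% against 13.6% in edgeR. limma on log2(FPKM + 0.1) gave 32 higher and 2 lower, i2_c38170.2 and i4_c884.2. Together these were 22.7% of the members, against 18.4% of all clusters. The 2 scales split all clusters differently, with 2615 higher and 1462 lower in edgeR and 1427 higher and 4086 lower in limma, where the median of all clusters was shifted by -0.35. Without mantle replicate 1, 2 or 3, edgeR called 34, 34 and 40 members higher and 1 lower each time, which was i1_c94453, i2_c38170.2 and i4_c884.2 in turn.

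The smallest p belonged to i1_c4174, with 2.13, 0.70 and 0.94 FPKM in mantle against 0.17, 0.30 and 0.23 FPKM in gill, 0.34, 0.36 and 0.39 FPKM in labial palp and 0.29, 0.18 and 0.18 FPKM in intestine. Every mantle library lay above all 9 of these libraries. The log2 difference was 2.55 ± 0.28 (SE), with an adjusted p of 9.1e-05 (edgeR). In siphon, i1_c4174 had 21.7, 14.1 and 19.3 FPKM, and in foot 11.6, 12.98 and 12.7 FPKM, which makes it 1 of the 4 members with all siphon libraries above all foot libraries.

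i1_c326817 showed the same order at a higher level. It had 11.7, 18.8 and 21.3 FPKM in mantle, against 4.30, 6.65 and 7.95 FPKM in gill, 9.40, 8.12 and 7.81 FPKM in labial palp and 2.36, 3.35 and 1.45 FPKM in intestine. The log2 difference of mantle from the mean of the 3 was 2.18 ± 0.28 (SE), with an adjusted p of 2.6e-04 (edgeR). Labial palp and gill overlapped, and every mantle library lay above both.

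In the 3 others with the smallest p, the mantle did not always stand clear of the gill. i1_c217991 had 8.83, 10.9 and 13.8 FPKM in mantle, against 10.3, 8.41 and 12.6 FPKM in gill, 6.57, 2.89 and 2.99 FPKM in labial palp and 1.22, 1.84 and 0.89 FPKM in intestine, so mantle and gill overlapped. i1_c126617.1, whose mantle libraries held 1021, 463 and 574 FPKM, had 442, 664 and 615 FPKM in gill, 234, 293 and 226 FPKM in labial palp and 81.7, 132 and 73.1 FPKM in intestine. i9_c81.1.1 had 297, 425 and 380 FPKM in gill, 251, 331 and 292 FPKM in labial palp and 102, 154 and 85.4 FPKM in intestine, all of them under its lowest mantle library. Their log2 differences of mantle from the mean of the 3 were 1.94, 1.88 and 2.35, with SEs of 0.28, 0.27 and 0.34 (edgeR).

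A test of any difference among the 4 tissues called 40 of the 150 members (26.7%), against 14.2% of all clusters, and DESeq2 called 71 (47.3%), against 25.8%. The smallest adjusted p values were 2.7e-04 for i1_c217991, 2.9e-04 for i1_c4174, 3.6e-04 for i1_c126617.1, 3.7e-04 for i3_c1820 and 5.3e-04 for i1_c326817 (edgeR). In i3_c1820 only the intestine stood apart: it had 19.3, 15.9 and 14.6 FPKM in mantle, 14.0, 18.2 and 13.7 FPKM in gill, 17.0, 12.6 and 18.1 FPKM in labial palp, and 4.65, 4.01 and 4.22 FPKM in intestine. Mantle, gill and labial palp overlapped, and all 9 of their libraries lay above the intestine.

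Each pair of these tissues was then tested, a choice made after the results above were known. The intestine separated most. Higher in mantle than in intestine were 55 members (36.7%), against 8.37% of all clusters. Higher in gill than in intestine were 26 (17.3%), against 4.76%, and higher in labial palp than in intestine 16 (10.7%), against 3.52%. The last count was 7, 6 and 10 without labial palp replicate 1, 2 or 3, and 9 without intestine replicate 1 or replicate 3.

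The mantle, gill and labial palp were also tested against each other. Higher in mantle than in labial palp were 16 members (10.7%), against 2.63% of all clusters, and the count was 4, 5 and 6 without labial palp replicate 1, 2 or 3. Higher in mantle than in gill were 6 members (4.0%), i1_c4174, i3_c1670, i1_c326817, i2_c20699, i1_c321350 and i1_c161798.1, against 2.52% of all clusters. In either direction, 4.9% of all clusters were called, above the 4.0% of the members. At an unadjusted p under 0.05 the shares were 15.3% of the members and 19.4% of all clusters (edgeR). The count of 6 fell to 2 without gill replicate 1 or replicate 3, so the place of mantle above gill rests for single members on few calls. Higher in gill than in labial palp was only i2_c22047 (0.667% of the members), against 0.364% of all clusters, and with the replicate block in the fit there was no such call. It was also lost when any siphon, foot or labial palp library, gill replicate 2 or 3, or intestine replicate 2 or 3 was left out. With all libraries, no member was called lower in the first tissue of any of the 6 pairs (edgeR). Without mantle replicate 1, 2 members were called lower in mantle than in gill, 2 lower than in labial palp and 1 lower than in intestine, and without mantle replicate 2 or 3 it was 1 in each of these pairs. Without intestine replicate 1, 1 member was called lower in labial palp than in intestine. At an unadjusted p under 0.05, 2 members were lower in gill than in labial palp and 1 lower in labial palp than in intestine. DESeq2 called 0 lower by adjusted p, and limma called 1 lower in mantle than in gill and 1 lower in mantle than in intestine.

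i2_c22047 had 3.34, 4.51 and 6.09 FPKM in gill, against 1.12, 0.99 and 1.50 FPKM in labial palp, 1.23, 1.74 and 1.70 FPKM in intestine and 6.65, 2.0 and 2.37 FPKM in mantle. The single member with its highest mean in intestine was i4_c884.2, with 1.57, 2.18 and 3.62 FPKM there, against 1.80, 2.78 and 2.27 FPKM in labial palp, so that these 2 tissues overlapped.

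The members differed widely in how steady they were over the 6 siphon and foot libraries. The coefficient of variation (SD over mean) had a median of 0.41 and ran from 0.0755 to 1.191, where the 14068 clusters with at least 1 FPKM in these libraries had a median of 0.354. i1_c240558 was the steadiest, with 7.71, 7.59 and 7.48 FPKM in siphon and 8.17, 6.56 and 7.03 FPKM in foot. i3_c1820 had 179, 168 and 147 FPKM in siphon and 139.6, 165 and 152 FPKM in foot, and i1_c159264 had 43.5, 37.5 and 34.2 FPKM in siphon and 41.8, 35.3 and 37.6 FPKM in foot.

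At the other end was i1_c36644.2, with 9.57, 131 and 6.76 FPKM in siphon and 62.5, 32.8 and 5.01 FPKM in foot. i1_c163060 had 6.26, 24.8 and 2.27 FPKM in siphon and 41.5, 9.86 and 1.34 FPKM in foot. i2_c2622.3 had 5.67, 87.8 and 8.48 FPKM in siphon and 45.3, 42.8 and 5.96 FPKM in foot. In these 3 members replicate 3 was low in both tissues while replicate 1 was low in siphon and high in foot.

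Averaged over siphon and foot, the highest of the 3 numbers was 1.04 to 13.9 times the lowest, with a median of 1.83. This fold was under 1.5 for 56 members and at least 4 for 22. The same number was highest in siphon and in foot for 79 members (52.7%), against 61.5% of the 14068 clusters. A test of the replicate number in the 6 libraries called 24 of the 150 members (16%), against 15.1% of all clusters, a share near that of all clusters in this test. The count was 0 without siphon replicate 1 or foot replicate 1 and 1 without siphon replicate 3 or foot replicate 3. It was 29 without siphon replicate 2 and 23 without foot replicate 2. limma called 41 members (27.3%), against 25.2% of all clusters, and DESeq2 83 (55.3%), against 38.6%.

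The called members followed no single order of the numbers. i2_c2440 had 334, 44.5 and 312 FPKM in siphon and 358, 42.2 and 361 FPKM in foot, with an adjusted p of 0.0154 (edgeR). i4_c3952 had 35.7, 15.6 and 4.15 FPKM in siphon and 39.7, 13.9 and 3.77 FPKM in foot. i3_c2563 had 63.1, 92.8 and 12.5 FPKM in siphon and 66.7, 82.2 and 10.8 FPKM in foot. The first was lowest in number 2 and the next 2 in number 3, and in each the siphon and foot libraries of a number nearly coincided. A small p in this test requires such agreement, so it follows from how these members were picked.

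i4_c811 was lowest in number 3, with 658, 779.9 and 153 FPKM in siphon and 652, 724 and 156 FPKM in foot. In gill it had 29.8, 45.5 and 11.1 FPKM, in labial palp 29.5, 33.2 and 3.74 FPKM and in intestine 11.9, 20.8 and 1.11 FPKM, so number 3 was the lowest there too. In mantle it had 3.48, 1.0 and 109 FPKM, with number 3 the highest. Of the 24 called members, 12 were lowest in number 3 in both siphon and foot, 7 in number 1 and 2 in number 2.

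**Figure D5:**
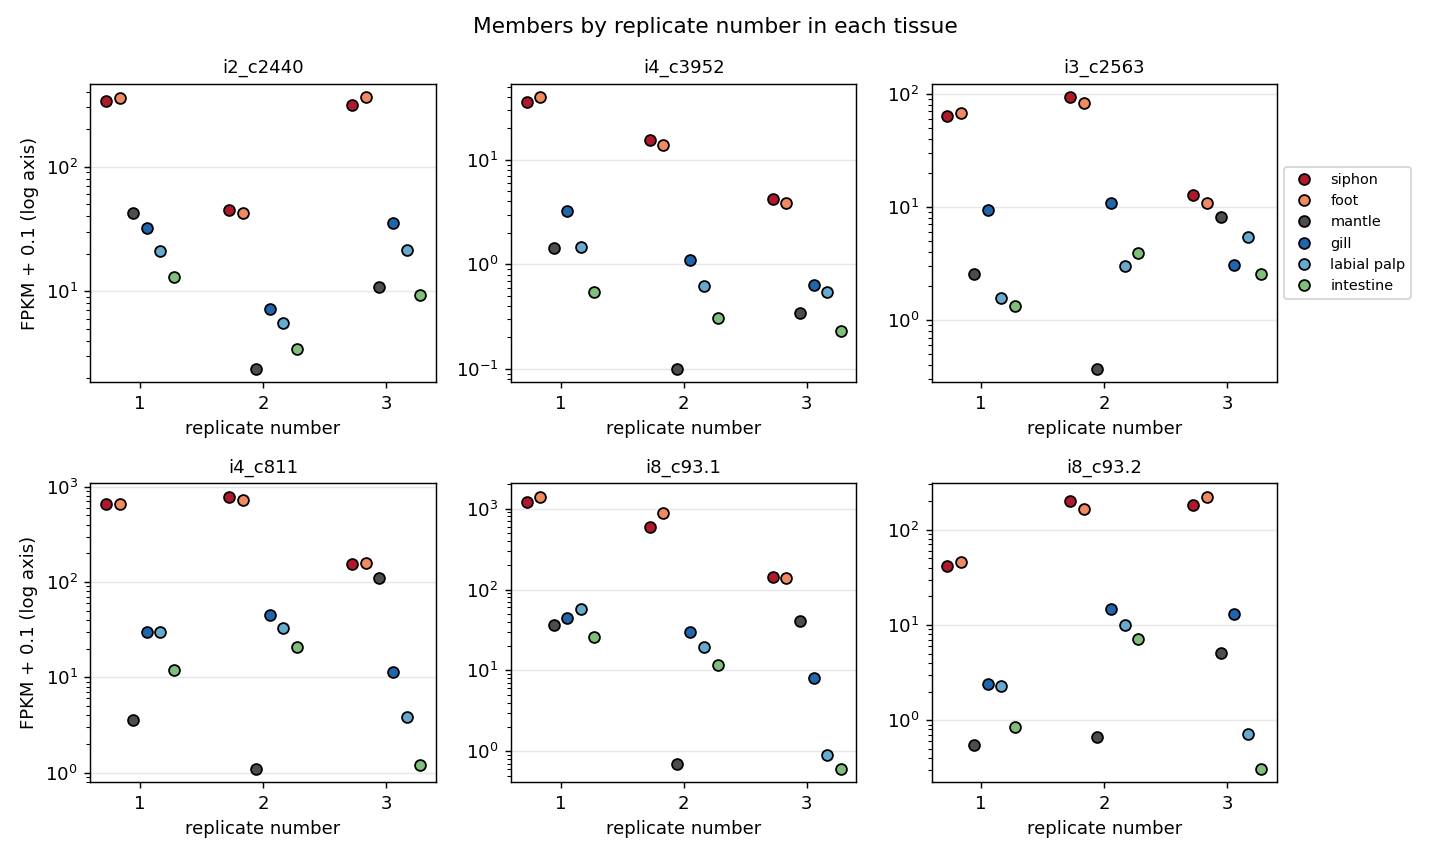
FPKM + 0.1 on a log axis of 6 members by replicate number; colours mark the tissues and each point is 1 library. Siphon and foot points of a number lie within 1.5-fold of each other in all 6 members, and in these 2 tissues i8_c93.1 is lowest in number 3 where i8_c93.2 is lowest in number 1. All 6 were called in the test of the replicate number, which favours such agreement.

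Pieces of the same transcript could follow different numbers. The transcript i8_c93 gave both of its clusters to the members. i8_c93.1 had 1202, 595 and 141 FPKM in siphon and 1393, 882 and 139 FPKM in foot, while i8_c93.2 had 41.8, 202 and 182 FPKM in siphon and 45.9, 166 and 221 FPKM in foot. Number 1 was thus the highest for the first piece and the lowest for the second, in siphon and foot alike, and their ratios were 23.71 and 14.18. In gill, i8_c93.1 had 43.8, 29.7 and 7.98 FPKM and i8_c93.2 had 2.31, 14.4 and 13 FPKM, again with number 1 the highest for the first and the lowest for the second. The other tissues followed this only in part. i8_c93.1 was highest in number 1 in labial palp, with 57.5, 19.3 and 0.79 FPKM, and in intestine, with 25.5, 11.5 and 0.51 FPKM. In mantle, i8_c93.2 was lowest in number 1, with 0.45, 0.57 and 4.92 FPKM. The other values did not follow it. i8_c93.2 was lowest in number 3 in labial palp, with 2.18, 9.85 and 0.61 FPKM, and in intestine, with 0.75, 7.02 and 0.21 FPKM, and i8_c93.1 was highest in number 3 in mantle, with 35.9, 0.59 and 41.2 FPKM.

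The other transcript with 2 members, i2_c38170, behaved otherwise. i2_c38170.1 had 3073, 2934 and 3544 FPKM in siphon and 3141, 4436 and 4712 FPKM in foot, and i2_c38170.2 had 1374, 1302 and 1318 FPKM in siphon and 1535, 1648 and 1699 FPKM in foot. Neither piece had a number that stood apart in siphon and foot. In mantle, i2_c38170.2 had 1.50, 358 and 0 FPKM, and i2_c38170.1 had 57.0, 523 and 260 FPKM, so the mantle libraries differed among themselves far more.

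Pieces of 14 member transcripts were listed as more than 1 cluster, with 16 members and 16 clusters that are no members. Of these 16, 12 had siphon and foot means above the other 4 tissues, and 1, i4_c1461.1, passed the rule below rank 150. i4_c1794.1, a piece of the same transcript as the abundant i4_c1794.2, had 39.5, 2280.3 and 2289 FPKM in siphon and 62.3, 4132 and 3957 FPKM in foot. It failed only because number 1 was low in both tissues, where i4_c1794.2 stayed between 2919 and 6426 FPKM.

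The identifiers give some features that the rule did not use. Pieces of a transcript made up 24.0% of the members, against 30.4% of the 14068 clusters with at least 1 FPKM in every siphon and foot library and 42.7% of all clusters. A support above 1, the number given in the identifier before the length, was held by 14.7% of the members, against 24.7% and 21.6%. The transcript length in the identifier had a median of 1967 bases in the members, against 2176 and 2139. The length over which reads were counted is not in the identifiers and was worked out from the deposited counts and FPKM. Its median was 1484 bases in the members, against 1491 and 1291. These are descriptions, with no test.

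Outside the members, the clusters whose log2 levels over the 18 libraries were most like the mean profile of the members were i4_c2872, i2_c135259 and i2_c45061, with Pearson's r of 0.988, 0.986 and 0.985. All 3 passed the rule, with ratios of 5.68, 6.429 and 6.528 that ranked below 150. Their mean FPKM was 241.9, 944.4 and 2391 in siphon and 310.8, 1270.0 and 3230.0 in foot, against 35.5, 147 and 366 in mantle. The 18 libraries of this correlation fall into 6 tissues and share the siphon and foot levels that chose the members, so r is given as a description.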

How the data were processed

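The RNA of 6 tissues was sequenced in 3 libraries each, whose tissue was read from the tissue label of each sample and whose number from the sample titles. For every library the authors deposited a table of 32250 isoform clusters with 2 values: an estimated count of the reads of each cluster, not normalized, and an FPKM that the authors had scaled for length and library total. The submitters' processing notes name RSEM, Bowtie2 and DESeq 1.10.1, with no roles or filters. The kit in the labels is an Illumina one while the instrument in the series text is from Pacific Biosciences, and the alignment reference is, like its build, not given in the sources used here.

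Members were found from the deposited FPKM by the rule stated at the opening. They, the lists and tests were chosen with earlier results of these data known. Clusters named are the 10 highest ratios, the 5 highest levels, the 3 on each side of the border, the 3 smallest and 3 largest coefficients of variation, up to 5 with the smallest adjusted p in each test past 0.05, members that share a transcript, and the 3 clusters outside most like the mean profile. Others were named after their values were seen.

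The estimated counts, rounded, of clusters with at least 10 reads in all were fitted with edgeR 4.0.16 (R 4.3.3, quasi-likelihood F-test, TMM normalization, Benjamini-Hochberg adjustment over all clusters, threshold 0.05), with 18 libraries in the fit, or the 6 of siphon and foot for replicate number. All 150 members were tested and had at least 11 reads in each siphon and foot library. DESeq2 1.42.0, limma 3.58.1 with trend on log2(FPKM + 0.1), RLE size factors, other read filters, a replicate block and each library left out were alternatives. The scripts were also run on simulated counts. There, changes were planted only in clusters of low spread, and libraries of the same number had no background correlation. That run does not measure how the tests perform on these data.

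No label says that a replicate number is shared between tissues, so pairing was judged from the data. Deviations from the tissue means correlated by 0.735 to 0.819 between siphon and foot libraries of the same number. Among those of gill, labial palp and intestine they correlated by 0.284 to 0.799, so both sets were judged to be paired. The mantle, at -0.0213 to 0.0302 with other tissues, was not. Over the members these ranges were 0.525 to 0.835, -0.0154 to 0.612 and -0.19 to 0.21, so the pairing of gill, labial palp and intestine was less clear there. The fits reported carry no replicate block, so their p-values and SEs do not use this pairing and treat all libraries as independent. The block was an alternative and was applied to all libraries, the mantle included. TMM factors lay between 0.509 and 0.825 in siphon and foot, 0.892 and 1.04 in mantle and 1.15 and 1.42 in the rest, so FPKM and TMM scales differ between these tissues.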

Additional observations from a re-analysis of the deposited data

How the results depend on the processing

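With the ratio minimum at 2 or 8, 511 or 105 clusters passed the rule in place of 322, and between 304 and 341 passed with 1 library left out. Of the 150 members, 118 were again in the top 150 with 1 FPKM added to the ratio and 123 on TMM-scaled counts. The ratios of the 10 leading members moved by over 1.5 times in 9 of 20 recalculations with another added constant.

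With DESeq2 the counts of members called were 1 between siphon and foot, 71 among the 4 other tissues, 16 between mantle and gill, 38 between mantle and labial palp, 6 between gill and labial palp, 46 between gill and intestine, 31 between labial palp and intestine and 83 by replicate number, and with limma 34 for the mantle against the mean of 3 tissues and 41 by replicate number. The share of all clusters called also rose with DESeq2, to 25.8% among the 4 tissues and 38.6% by replicate number, and exceeded the members' share between siphon and foot (0.667% of members, against 4.04%) and between mantle and gill (10.7% of members, against 14.6%). With the replicate block the counts were 0 between siphon and foot, 55 among the 4 tissues, 10 between mantle and gill (6.67%, against 10% of all clusters), 0 between gill and labial palp and 63 for the mantle against the mean, and no count moved by over 1.5 times other than mantle against gill and gill against labial palp. With 1 library left out, the count was 0 for siphon against foot each time, and the counts lay between 32 and 40 among the 4 tissues, 35 and 51 for the mantle against the mean (both directions together), 2 and 8 for mantle against gill, 4 and 17 for mantle against labial palp, 0 and 1 for gill against labial palp, 6 and 16 for labial palp against intestine, and 0 and 29 for the replicate number. The cause of these changes was not tested.

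The 5 members named for the mantle kept direction and call under every setting run. The 5 named among the 4 tissues, a test with no direction, kept their call. The 5 named for the replicate number lost their call 18 times with siphon or foot replicate 1 or 3 left out. A level of 0 in shallow libraries is not absence: a member in the intestine libraries, the shallowest, can lie below what their depth detects. Without gene names or sequences, what the members encode was not analysed here.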
